A study of Mus musculus with 8 samples.

Results

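The Bcl2 family decides, at the outer mitochondrial membrane, whether a cell under stress starts apoptosis. Anti-apoptotic members such as *Bcl2*, *Bcl2l1* (Bcl-xL), *Bcl2l2* (Bcl-w) and *Mcl1* hold the effectors *Bax* and *Bak1* in check, and the effectors, once released, form pores that let cytochrome c out. BH3-only members (*Bid*, *Bcl2l11* or Bim, *Bbc3* or Puma, and *Pmaip1* or Noxa) sense damage or loss of survival signals and shift the balance toward the effectors. These proteins are also controlled by splicing, cleavage, phosphorylation and degradation, which a level of mRNA does not show.

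These 10 genes were chosen by name, with earlier results of these data known, and all 10 were found among the 24341 genes of the table. Their mRNA was measured in 8 libraries, each from the pancreas bud of 1 mouse embryo at E11.0 (about 40 somites). The labels give the strain as CD1 for all 8, whereas the methods name CD1 for WT work and list the floxed and Cre lines apart from it. The methods also state that mutant pancreata were set against WT or heterozygous littermates. The sample titles call the control buds WT. The 5 WT buds were compared with 3 *Lats1/2*PanKO buds. The latter carried the *Pdx1Cre* early transgene and were floxed at both alleles (f/f) of *Lats1* and of *Lats2*, so that Cre made in *Pdx1*-expressing pancreatic progenitors deletes these Hippo kinases. Deletion is therefore limited to the *Pdx1* lineage, and per the methods the mesenchyme was pulled away by hand before total RNA was extracted. The values are FPKM, in which fragments are scaled to transcript length and to library size, so that levels of different genes can be compared.

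Facts of the whole libraries bear on every comparison that follows. Between 16117 and 16982 genes were above 0 in each library, and the steps between low values correspond to 9.48e+06 to 1.02e+07 aligned fragments in 7 libraries and, for WT replicate 5, to 7.55e+06, provided that no later rescaling took place. *Lats1* was at 14.1 to 16.6 FPKM in WT and 10.1 to 13.8 FPKM in *Lats1/2*PanKO buds, which did not overlap (adjusted p = 0.269 from limma), whereas *Lats2* overlapped. These are values of the whole genes and not of the floxed exons. The summed level of 12 pancreatic epithelium markers (*Pdx1*, *Sox9*, *Cdh1*, *Epcam* and others) was 257 to 329 FPKM in WT buds. It was 560, 465 and 1110 FPKM in *Lats1/2*PanKO replicates 1, 2 and 3, where *Krt8* and *Krt18* gave 253 and 228 FPKM in replicate 3. Of the 12, 9 did not overlap, against 7.51% of all genes tested, whereas *Pdx1*, *Prox1* and *Ptf1a* did. *Ptf1a* was at 1.37 to 3.02 FPKM in WT and 1.99, 2.61 and 1.61 FPKM in *Lats1/2*PanKO buds. Markers of other cells were present in both genotypes. Those of mesenchyme summed to 350 to 459 FPKM in WT and 177 to 371 FPKM in *Lats1/2*PanKO buds, with *Lum* under 0.5 FPKM in each library, those of endothelium to 116 to 197 and 82.4 to 128 FPKM, those of leukocytes to 12.7 to 26.6 and 21.6 to 30.2 FPKM, and those of nerve and neural crest to 26.2 to 34.9 and 28.3 to 44.6 FPKM. Red blood cell markers summed to between 2634 and 15766 FPKM in WT and between 7966 and 10167 FPKM in *Lats1/2*PanKO buds, with *Hba-a2*, a near-identical copy of *Hba-a1*, close to 0. Genes that did not overlap between genotypes numbered 1 of 11 tested for mesenchyme and 2 of 10 for endothelium, all lower, and 1 of 9 for leukocytes, higher. In such bulk tissue, fewer cells of a type and less RNA per cell cannot be told apart, and the part of these markers in the results was not tested.

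Genotypes were compared with limma on log2(FPKM + 1) over the 13777 genes whose mean reached 0.5 FPKM, and p-values were adjusted over all of them. All 10 family members passed that filter. None of the 10 had an adjusted p under 0.05 from limma, where 0.0145% of all genes tested did. At an unadjusted p under 0.05 there were 2 members, *Bcl2l1* and *Bax*, both with the higher mean in *Lats1/2*PanKO buds, where 11.3% of all genes tested had such a p and 6.29% had it with the higher mean in mutant buds. The same 2 were the members whose genotypes did not overlap, against 7.51% of all genes tested. Both lay higher in *Lats1/2*PanKO buds and none lower, against 4.46% and 3.06% of all genes. The count at an unadjusted p under 0.05 was 1 member, *Bcl2l1*, without *Lats1/2*PanKO replicate 3, when 5.70% of the genes tested had such a p. It was 3 with quantile normalization (11.6% of the genes tested), without WT replicate 3 (9.85%) or without *Lats1/2*PanKO replicate 2 (14.7%), and 4 with array weights (18.7%). Of the 10 members, 7 had a higher and 3 a lower mean log2 level in the mutants, where 46.9% of all genes tested had a higher one. Their median log2 fold change was 0.16, and that of all genes tested -0.01.

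**Figure D1:**
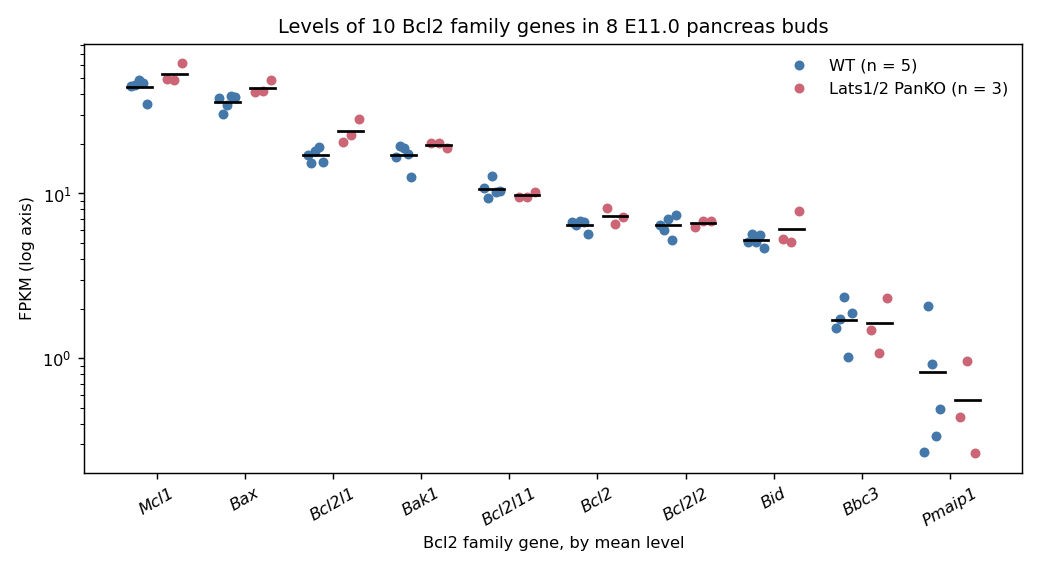
FPKM (vertical log axis) of the 10 Bcl2 family genes, ordered by mean level, with 1 point for each bud (5 WT in blue, 3 *Lats1/2*PanKO in red) and a black bar at each group mean. Means run from 47.6 FPKM for *Mcl1* to 0.721 FPKM for *Pmaip1*, and the genotypes separate for *Bcl2l1* and *Bax*.

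The members differed far more from each other than between genotypes. *Mcl1* had the highest mean over the 8 libraries, 47.6 FPKM, followed by *Bax* at 39.1, *Bcl2l1* at 19.6, *Bak1* at 18.1, *Bcl2l11* at 10.4, *Bcl2* at 6.78, *Bcl2l2* at 6.48, *Bid* at 5.54, *Bbc3* at 1.68 and *Pmaip1* at 0.721 FPKM. *Mcl1* stood above 87.3% of the genes tested and *Pmaip1* above 3.97%. Some neighbours in this order held their places in all 8 libraries, namely *Bax* above *Bcl2l1*, *Bak1* above *Bcl2l11*, *Bcl2l11* above *Bcl2*, and *Bid* above *Bbc3*. Others changed places. *Mcl1* was above *Bax* in 7 of 8 libraries, the exception being WT replicate 5, and *Bbc3* was above *Pmaip1* in 7 of 8. *Bcl2l1* was above *Bak1* in 6 of 8 libraries, 3 of 5 WT and 3 of 3 *Lats1/2*PanKO. *Bcl2* and *Bcl2l2* could not be ordered beyond the spread between buds, with *Bcl2* above in 5 of 8 libraries, nor could *Bcl2l2* and *Bid*, with *Bcl2l2* above in 6 of 8.

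Promoter sequence was available from RefSeq (GRCm38.p6) for 9 of the 10 members, in 14 windows of 250 bases before to 50 bases after a transcription start site, and *Pmaip1* had no entry. Letters were searched on both strands. GGAATG, the core bound by TEAD factors, the DNA-binding partners of YAP1 and TAZ, was in 2 of the 14 windows and in 14.7% of all 32851 windows. A form of the NFκB site, GGG and TTTCC with any 2 bases between them, was in 3 windows and in 1.63% of all. GTAAACA, bound by FOXO factors, was in 2 windows, 1 of *Bcl2l11* and 1 of *Bbc3*, and in 3.65% of all. CATG, the core of the p53 response element, was in 3 windows and in 61.1% of all, and TTTCCCGC, bound by E2F factors, was in none of the 14 and in 1.07% of all. A match of letters is a description and not a binding site. The 3 stretches below are the 250 bases before the start site of *Bcl2l1* and *Bax*, the members whose genotypes separated, and of *Mcl1*, the member with the highest level. No annotated exon of GENCODE M21 lies in any of them. For *Bcl2l1* the window is that of the start site at the 5′ end of the gene's locus in the table, at chr2:152831729-152831978 on the minus strand. *Mcl1* is at chr3:95658471-95658720 on the plus strand and *Bax* at chr7:45466899-45467148 on the minus strand. Capitals mark GGAATG in *Bcl2l1*, CATTCC (the reverse complement of GGAATG) and the NFκB-type letters in *Mcl1*, and CATG in *Bax*.
Bcl2l1: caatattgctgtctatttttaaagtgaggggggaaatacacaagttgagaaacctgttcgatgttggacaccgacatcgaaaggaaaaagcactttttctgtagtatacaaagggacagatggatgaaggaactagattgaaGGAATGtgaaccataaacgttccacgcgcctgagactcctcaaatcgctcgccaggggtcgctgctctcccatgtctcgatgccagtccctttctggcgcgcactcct
Mcl1: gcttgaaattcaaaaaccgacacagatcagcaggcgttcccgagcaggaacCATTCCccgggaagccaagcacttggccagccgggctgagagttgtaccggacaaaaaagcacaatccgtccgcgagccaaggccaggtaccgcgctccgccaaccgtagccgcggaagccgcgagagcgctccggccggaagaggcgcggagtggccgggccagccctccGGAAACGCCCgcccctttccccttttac
Bax: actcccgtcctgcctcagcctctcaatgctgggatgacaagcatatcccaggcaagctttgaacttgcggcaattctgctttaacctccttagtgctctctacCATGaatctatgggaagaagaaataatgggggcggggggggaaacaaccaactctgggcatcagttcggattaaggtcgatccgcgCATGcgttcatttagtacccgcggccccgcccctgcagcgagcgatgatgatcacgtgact

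Among the anti-apoptotic members, *Bcl2l1* had the largest ratio between genotype means. Its deposited locus lies on chromosome 2 of GRCm38 from 152754173 to 152831728, whereas GENCODE M21 places the gene at 152780668 to 152831728. The gene encodes Bcl-xL, which binds effectors and BH3-only proteins, and a short splice form that promotes death. The FPKM of the gene does not separate these forms. *Bcl2l1* was at 17.0, 15.3, 18.2, 19.1 and 15.4 FPKM in WT replicates 1 to 5 and at 20.5, 22.6 and 28.4 FPKM in *Lats1/2*PanKO replicates 1 to 3. Every *Lats1/2*PanKO bud was above every WT bud, with the lowest of them close to the highest WT value. The means were 17.0 ± 1.68 FPKM (SD, n = 5) and 23.8 ± 4.07 FPKM (SD, n = 3), a ratio of 1.40 (two-sided exact permutation p = 0.0179, the smallest that 56 splits can give). On the log2 scale the difference was 0.45 with a standard error of 0.12 and a 95% interval of 0.19 to 0.72 (limma, adjusted p = 0.212). By p, *Bcl2l1* ranked 217 of the 13777 genes. Without *Lats1/2*PanKO replicate 3 the mean of the other two was 21.6 FPKM and the log2 fold change 0.33. The bases printed for *Bcl2l1* hold GGAATG once, 108 bases before the start site, and CATG, left in lower case, 38 bases before it.

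*Mcl1*, on chromosome 3 from 95658721 to 95663178, encodes a short-lived protein that many embryonic cells need for survival. *Mcl1* was at 44.8, 45.3, 49.0, 47.0 and 35.1 FPKM in WT replicates 1 to 5 and at 49.4, 48.8 and 61.5 FPKM in *Lats1/2*PanKO replicates 1 to 3. The groups touched, since *Lats1/2*PanKO replicate 2 lay just under WT replicate 3, and the lowest value was that of WT replicate 5. The means of 44.2 ± 5.37 FPKM (SD, n = 5) and 53.2 ± 7.18 FPKM (SD, n = 3) did not differ beyond the spread between buds (two-sided exact permutation p = 0.0536). In limma the log2 fold change was 0.26 (95% interval -0.0047 to 0.53, adjusted p = 0.457 from limma). It was 0.16 without *Lats1/2*PanKO replicate 3, and 0.08 when WT replicate 5 was left out as well.

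*Bcl2*, on chromosome 1 from 106538178 to 106714290, is the founding member of the family and is known for keeping neurons, lymphocytes and kidney progenitors alive. *Bcl2* was at 6.68, 6.41, 6.78, 6.72 and 5.72 FPKM in WT replicates 1 to 5 and at 8.14, 6.54 and 7.22 FPKM in *Lats1/2*PanKO replicates 1 to 3. Replicates 1 and 3 of *Lats1/2*PanKO lay above all WT buds and replicate 2 within them, for a log2 fold change of 0.15 (95% interval -0.07 to 0.38, adjusted p = 0.625 from limma), which was 0.08 without *Lats1/2*PanKO replicate 1. Its spread in WT buds was small, with an SD of 6.81% of the mean.

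*Bcl2l2*, on chromosome 14 from 54883425 to 54888234, encodes Bcl-w, which is best known for its need in sperm production. *Bcl2l2* was at 6.40, 6.01, 7.02, 5.21 and 7.38 FPKM in WT replicates 1 to 5, and at 6.27, 6.77 and 6.76 FPKM in *Lats1/2*PanKO replicates 1 to 3. All 3 *Lats1/2*PanKO values fell inside the WT range. The log2 fold change of 0.05 had a 95% interval from -0.21 to 0.31 (adjusted p = 0.915 from limma). In GENCODE M21, 594 exonic bases of *Bcl2l2* are shared with *Gm20521* on the same strand, so reads there could belong to either.

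Of the effectors, *Bax*, on chromosome 7 from 45461695 to 45466898, encodes a cytosolic protein that moves to mitochondria when activated. *Bax* was at 38.0, 30.4, 34.6, 39.1 and 38.5 FPKM in WT replicates 1 to 5 and at 41.5, 41.9 and 48.5 FPKM in *Lats1/2*PanKO replicates 1 to 3. The groups did not overlap, and *Lats1/2*PanKO replicates 1 and 2 lay close above the highest WT buds. The means were 36.1 ± 3.64 FPKM (SD, n = 5) and 44.0 ± 3.95 FPKM (SD, n = 3), a ratio of 1.22 (two-sided exact permutation p = 0.0357). On the log2 scale the difference was 0.28 with a standard error of 0.10 and a 95% interval of 0.06 to 0.49 (limma, adjusted p = 0.330), and it was 0.21 without *Lats1/2*PanKO replicate 3. A stretch of 192 exonic bases is shared with *Gm45808* on the same strand, so reads there could belong to either gene. The 250 bases printed for *Bax* hold CATG at 2 places, 147 and 61 bases before the start site.

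*Bak1* encodes the effector that sits in the mitochondrial membrane from the start. Its deposited locus lies on chromosome 17 from 27018035 to 27036378, whereas GENCODE M21 places the gene at 27019810 to 27029009. There *Bak1* shares 177 and 437 exonic bases with entries of *Ggnbp1* on the opposite strand. *Bak1* was at 16.6, 19.5, 18.9, 17.4 and 12.6 FPKM in WT replicates 1 to 5 and at 20.3, 20.1 and 19.0 FPKM in *Lats1/2*PanKO replicates 1 to 3. Replicate 3 of *Lats1/2*PanKO fell below the highest WT bud, and WT replicate 5 was the lowest of all. Between the means lay a log2 fold change of 0.22 (95% interval -0.06 to 0.51, adjusted p = 0.565 from limma), and it was 0.13 without WT replicate 5. Unlike *Bcl2l1*, *Mcl1*, *Bax* and *Bid*, whose highest value was in *Lats1/2*PanKO replicate 3, *Bak1* was lowest there among the 3 *Lats1/2*PanKO buds. Over all genes tested, 20.5% had their highest value in *Lats1/2*PanKO replicate 3, against 4 of the 10 members, and 19.7% had their lowest in WT replicate 5, against 4 of the 10.

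**Figure D2:**
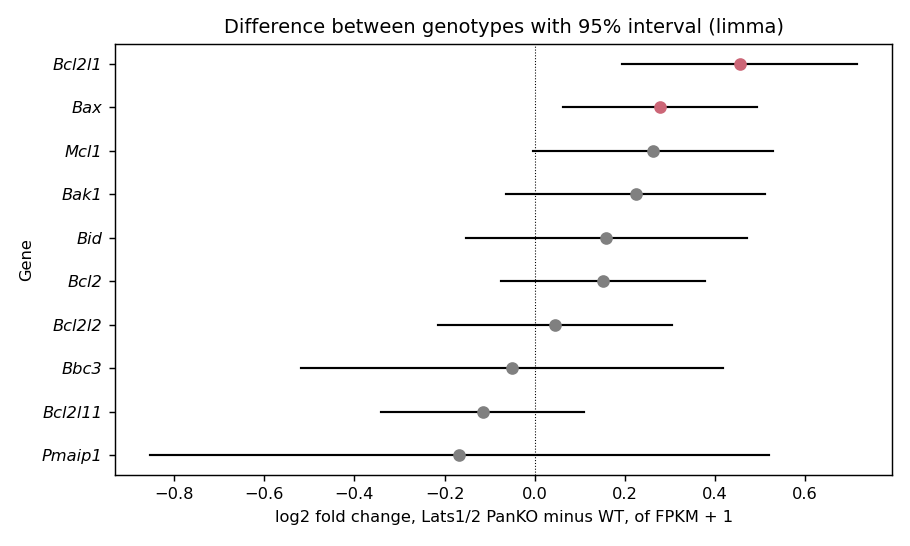
The log2 fold change of FPKM + 1 between *Lats1/2*PanKO (n = 3) and WT buds (n = 5) for each gene (points) with its 95% interval from limma (lines), in red where the genotypes do not overlap. The intervals of *Bcl2l1* and *Bax* lie above 0, and those of the other 8 members include it.

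The 4 BH3-only members showed no common direction. *Bid*, on chromosome 6 from 120893119 to 120916820, links death receptors to mitochondria once caspase-8 cleaves it. *Bid* was at 5.09, 5.67, 5.11, 5.64 and 4.68 FPKM in WT replicates 1 to 5 and at 5.28, 5.09 and 7.79 FPKM in *Lats1/2*PanKO replicates 1 to 3. A single bud, *Lats1/2*PanKO replicate 3, was above the WT range. With it the log2 fold change was 0.16 (95% interval -0.15 to 0.47, adjusted p = 0.726 from limma), and -0.01 without that bud. *Bid* shares 628 exonic bases with *Bcl2l13* on the opposite strand, and the libraries were stranded.

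*Bcl2l11*, on chromosome 2 from 128126038 to 128162547, encodes Bim, which binds all the anti-apoptotic members and is induced when growth factors are lost. *Bcl2l11* was at 10.8, 9.42, 12.7, 10.2 and 10.3 FPKM in WT replicates 1 to 5, and at 9.54, 9.47 and 10.3 FPKM in *Lats1/2*PanKO replicates 1 to 3. The *Lats1/2*PanKO buds lay in the lower part of the WT range, with a log2 fold change of -0.11 (95% interval -0.34 to 0.11, adjusted p = 0.726 from limma), and it was negative under every alternative that was run, nearest to 0 without WT replicate 3 (-0.06). *Bcl2l11* made up 49.8% to 61.1% of the summed FPKM of the 4 BH3-only members in WT buds and 49.7% to 57.0% in *Lats1/2*PanKO buds.

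*Bbc3* and *Pmaip1* encode Puma and Noxa, both transcribed on p53 activation, and both were low. *Bbc3*, on chromosome 7 from 16309583 to 16318334, was at 1.53, 1.73, 2.35, 1.02 and 1.89 FPKM in WT replicates 1 to 5 and at 1.48, 1.07 and 2.34 FPKM in *Lats1/2*PanKO replicates 1 to 3. *Pmaip1*, on chromosome 18 from 66458604 to 66465558, was at 0.268, 2.09, 0.917, 0.336 and 0.491 FPKM in WT replicates 1 to 5 and at 0.439, 0.967 and 0.265 FPKM in *Lats1/2*PanKO replicates 1 to 3. The groups overlapped for both genes, and WT replicate 2 stood above the other 7 libraries for *Pmaip1*. The log2 fold changes were -0.05 for *Bbc3* (95% interval -0.52 to 0.42, adjusted p = 0.952 from limma) and -0.17 for *Pmaip1* (95% interval -0.85 to 0.52, adjusted p = 0.887 from limma). The added 1 FPKM makes these values understate any change. By the same rough estimate, and if all annotated exonic bases were transcribed, the FPKM of *Pmaip1* would rest on about 7.08 to 54.3 fragments per library. Those of *Bbc3* would rest on about 22.0 to 49.2, and both ranges require that no later rescaling took place. The SD of *Pmaip1* in WT buds was 91.7% of its mean.

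**Figure D3:**
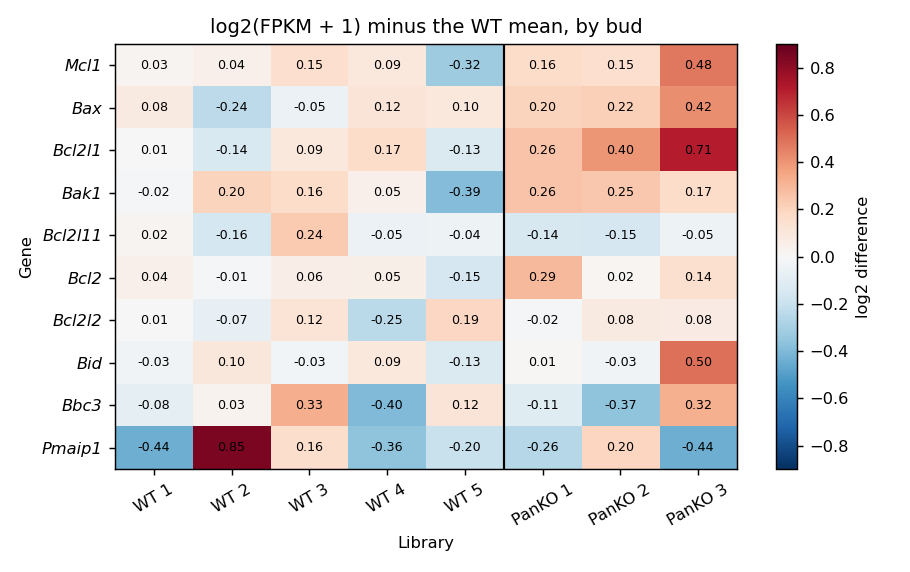
The difference of log2(FPKM + 1) from the WT mean for each gene (rows) in each bud (columns), printed in each cell and shown in colour from blue (lower) to red (higher). The highest values of *Bcl2l1* (0.71), *Bid* (0.50), *Mcl1* (0.48) and *Bax* (0.42) are all in *Lats1/2*PanKO replicate 3, and *Mcl1* (-0.32) and *Bak1* (-0.39) are lowest in WT replicate 5.

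The precision of these comparisons can be read from their intervals. For all 8 members whose mean reached 2 FPKM, the 95% interval ended below a log2 fold change of 1, so a doubling of FPKM + 1 lay outside it. The upper limits on the scale of FPKM + 1 were 1.64-fold for *Bcl2l1*, 1.44-fold for *Mcl1*, 1.43-fold for *Bak1*, 1.41-fold for *Bax*, 1.39-fold for *Bid* and 1.30-fold for *Bcl2*. The lower limits were 0.790-fold for *Bcl2l11* and 0.862-fold for *Bcl2l2*. The p-values that missed the threshold do not show that the levels were equal.

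The balance between the arms of the family was described from sums of FPKM within each bud and from their ratios, which do not depend on how a whole library is scaled. These sums were formed after the values had been seen and were not tested. The 4 anti-apoptotic members summed to 63.6 to 81.0 FPKM in WT and 84.3 to 104 FPKM in *Lats1/2*PanKO buds, and *Mcl1* gave 55.2% to 62.0% of that sum in WT and 57.6% to 59.2% in *Lats1/2*PanKO buds. *Bax* and *Bak1* summed to 49.9 to 56.5 FPKM in WT and 61.8 to 67.5 FPKM in *Lats1/2*PanKO buds. The BH3-only members summed to 17.2 to 21.1 FPKM and to 16.6 to 20.7 FPKM. The anti-apoptotic sum and the effector sum thus did not overlap between genotypes, whereas the BH3-only sum did. The former sums contain *Bcl2l1* and *Bax*, which did not overlap singly either. How often comparable sums or ratios of other genes fail to overlap was not computed, so no shift of the balance can be read from them. The ratio of the anti-apoptotic sum to the effector sum was 1.25 to 1.51 in WT and 1.36 to 1.54 in *Lats1/2*PanKO buds and overlapped. The ratio of the anti-apoptotic sum to the BH3-only sum was 3.66 to 4.54 in WT and 5.02 to 5.11 in *Lats1/2*PanKO buds. Between single genes, *Bcl2l1* relative to *Bax* was 0.401 to 0.525 in WT and 0.494 to 0.585 in *Lats1/2*PanKO buds, which overlapped. *Mcl1* relative to *Bcl2l11* was 3.41 to 4.81 in WT and 5.16 to 5.98 in *Lats1/2*PanKO buds, which did not.

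**Figure D4:**
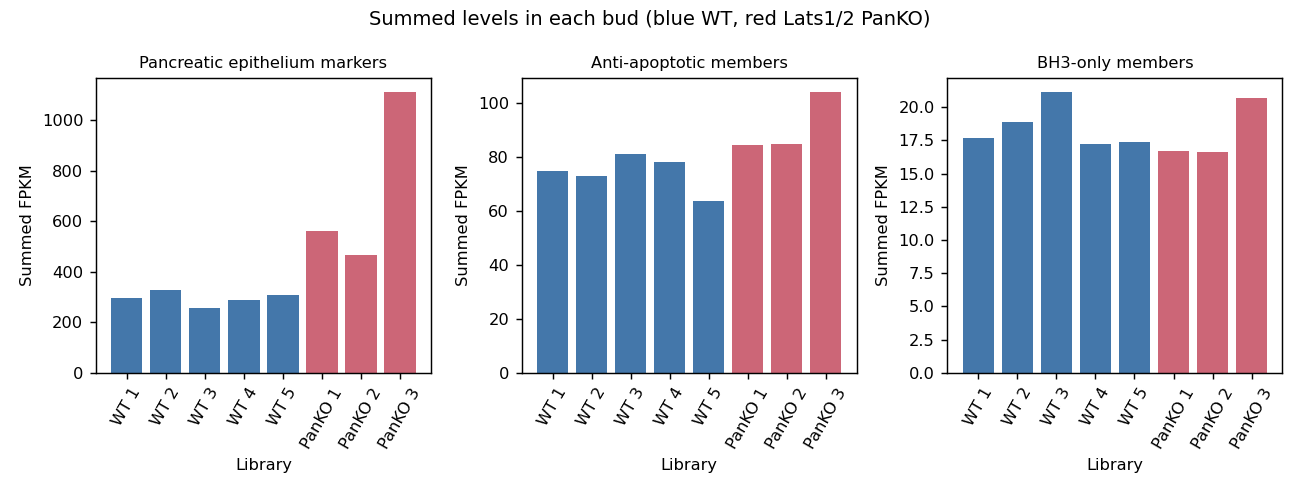
Summed FPKM in each bud (bars, from 0) of 12 pancreatic epithelium markers, the 4 anti-apoptotic members and the 4 BH3-only members, WT in blue and *Lats1/2*PanKO in red. The marker sum is 560, 465 and 1110 FPKM in the *Lats1/2*PanKO buds against 257 to 329 FPKM in WT, the anti-apoptotic sum is 84.3 to 104 against 63.6 to 81.0 FPKM, and the BH3-only sums overlap.

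The genes whose values over the 8 libraries were nearest to those of *Bcl2l1* and *Bax*, the members with the smallest p, were found by the root mean square difference of log2(FPKM + 1), each gene being centred on its own mean. For *Bcl2l1*, whose own root mean square deviation was 0.27, they were *Prps2* (0.07), *Aktip* (0.08) and *Trap1a* (0.08). For *Bax*, with a deviation of 0.18, they were *Fam213a* (0.06), *1500009L16Rik* (0.07) and *Thbs1* (0.07). *Prps2* had means of 9.63 FPKM in WT and 13.3 FPKM in *Lats1/2*PanKO buds and *Fam213a* 35.1 and 42.2 FPKM. *Trap1a* was low, with means of 0.350 and 0.966 FPKM, where the added 1 FPKM makes differences look smaller. How near the nearest genes of other genes lie was not computed.

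The rest of the pathway was examined in 5 lists that held 75 genes, of which 62 were tested. These lists, too, were chosen with earlier results of these data known. None of the 62 had an adjusted p under 0.05 from limma, 10 had an unadjusted p under 0.05 and 9 did not overlap between genotypes, 7 with higher and 2 with lower values in the mutants. The corresponding shares were 16.1% at an unadjusted p under 0.05 against 11.3% of all genes tested, and 14.5% without overlap against 7.51%. The median log2 fold change over the 62 genes was 0.01.

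Of 16 other genes of the Bcl2 family, 8 were tested, 2 with a higher and 6 with a lower mean in the mutants, and their median log2 fold change was -0.15. None had an unadjusted p under 0.05, and in all 8 the genotypes overlapped. The 2 with the smallest p were BH3-only genes. *Bik* was at 0.475 to 2.13 FPKM in WT buds (median 1.14) and at 0.506, 0.828 and 0.359 FPKM in *Lats1/2*PanKO buds (log2 fold change -0.50, adjusted p = 0.518 from limma). *Bmf*, known for a role in death after loss of attachment, was at 4.34 to 5.57 FPKM in WT buds and 3.29, 4.23 and 4.74 FPKM in *Lats1/2*PanKO buds (log2 fold change -0.22, or -0.10 without *Lats1/2*PanKO replicate 1, adjusted p = 0.580 from limma). The 8 genes that were not tested had a mean under 0.5 FPKM and included the 4 near-identical *Bcl2a1* copies, the BH3-only gene *Hrk*, and *Bcl2l10*, *Bcl2l14* and *Bcl2l15*.

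Downstream of the mitochondria, cytochrome c released by the effectors assembles with *Apaf1* and caspase-9, which activates the executioner caspases. All 21 genes of this list were tested, with 10 higher and 11 lower means and a median log2 fold change of -0.01. Without overlap between genotypes were 1 higher and 1 lower gene, 9.52% of the list against 7.51% of all genes tested. At an unadjusted p under 0.05 from limma the share was 4.76%, against 11.3%. *Casp9* was lower in every *Lats1/2*PanKO bud, at 5.59 to 6.80 FPKM in WT and 5.54, 5.22 and 5.42 FPKM in *Lats1/2*PanKO buds, the nearest pair lying close together (log2 fold change -0.16, adjusted p = 0.569 from limma). *Aifm1*, which encodes a mitochondrial flavoprotein that can move to the nucleus in cell death, was at 30.8 to 38.1 FPKM in WT and 40.1, 41.2 and 38.7 FPKM in *Lats1/2*PanKO buds (log2 fold change 0.22, adjusted p = 0.331 from limma).

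Death receptors start apoptosis from the cell surface, through *Fadd* and caspase-8, and reach the Bcl2 family through *Bid*. Of 13 genes, 10 were tested, 7 with a higher and 3 with a lower mean. Of these, 3 did not overlap between genotypes, against 7.51% of all genes tested. *Tnfrsf21*, which encodes death receptor 6, was at 5.94 to 7.31 FPKM in WT and 12.3, 9.34 and 17.2 FPKM in *Lats1/2*PanKO buds (log2 fold change 0.82 ± 0.17 SE, limma adjusted p = 0.140). *Casp8*, which encodes the initiator caspase that cleaves Bid, was at 5.21 to 9.21 FPKM in WT and 11.7, 9.60 and 15.3 FPKM in *Lats1/2*PanKO buds (log2 fold change 0.63, adjusted p = 0.291 from limma). *Tnfrsf1a*, the main receptor for TNF, was at 11.6 to 15.0 FPKM in WT and lower in *Lats1/2*PanKO buds, at 10.3, 10.8 and 7.38 FPKM (log2 fold change -0.46, or -0.30 without replicate 3, adjusted p = 0.267 from limma). In all 3 genes the value farthest from WT was that of *Lats1/2*PanKO replicate 3, the bud with the highest sum of epithelial markers, and the part of those markers was not tested.

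Of 15 genes of p53 and its targets, 14 were tested, 9 with a higher and 5 with a lower mean, and *Bbc3*, *Pmaip1* and *Bax* are further targets. The 4 that did not overlap were all higher in *Lats1/2*PanKO buds, where 4.46% of all genes tested were so. In all 4 the highest value was that of *Lats1/2*PanKO replicate 3, as in 20.5% of all genes tested. *Cdkn1a*, which encodes the cell cycle inhibitor p21, was at 3.02 to 4.14 FPKM in WT and 7.33, 4.88 and 12.5 FPKM in *Lats1/2*PanKO buds (log2 fold change 0.92 ± 0.23 SE, limma adjusted p = 0.209, and 0.60 without replicate 3). *Sesn1* was at 7.28 to 11.8 FPKM in WT and 16.0, 14.2 and 25.4 FPKM in *Lats1/2*PanKO buds (log2 fold change 0.98 ± 0.20 SE, limma adjusted p = 0.140). *Sesn2*, like *Sesn1* a stress-induced inhibitor of mTORC1 signaling, was at 4.03 to 5.39 FPKM in WT and 8.25, 5.61 and 10.6 FPKM in *Lats1/2*PanKO buds (limma, adjusted p = 0.291). *Aen*, an apoptosis-linked nuclease gene, hardly separated, at 14.3 to 20.63 FPKM in WT and 20.64, 21.9 and 24.1 FPKM in *Lats1/2*PanKO buds (limma, adjusted p = 0.440). The median of the list was 0.03.

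Of 10 genes of stress and Foxo factors that can act on BH3-only genes, 9 were tested and all overlapped between genotypes, with a median log2 fold change of 0.02. *Jun*, an AP-1 subunit, was at 23.8 to 46.9 FPKM in WT (median 36.4) and 52.5, 46.1 and 102 FPKM in *Lats1/2*PanKO buds (log2 fold change 0.88, or 0.54 without replicate 3, adjusted p = 0.315 from limma). *Atf3* was at 0.369 to 1.28 FPKM in WT and 0.766, 0.715 and 2.03 FPKM in *Lats1/2*PanKO buds (log2 fold change 0.29, or 0.02 without replicate 3, adjusted p = 0.722 from limma).

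**Figure D5:**
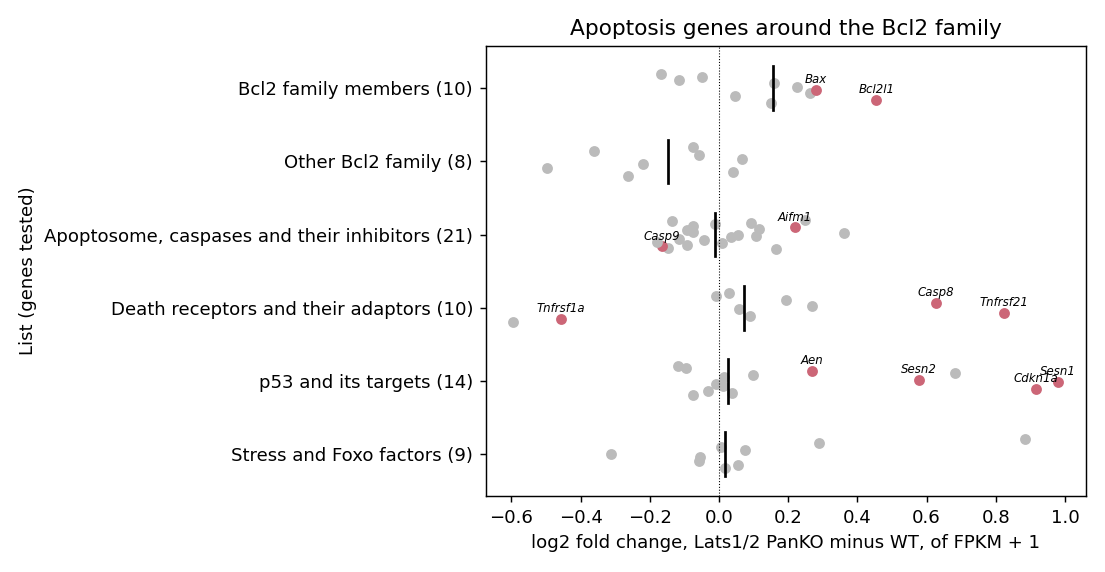
The log2 fold change of FPKM + 1 between genotypes (horizontal axis) for each tested gene of the Bcl2 family and of 5 lists around it (rows, with the number tested), in red and named where the genotypes do not overlap, with a black line at each median. The medians lie between -0.15 and 0.16, and the largest separated values are those of *Sesn1*, *Cdkn1a* and *Tnfrsf21*.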

How the data were processed

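RNA-seq libraries were made from ribosome-depleted total RNA of single pancreas buds at E11.0, from 5 WT and 3 *Lats1/2*PanKO embryos. The authors trimmed reads with cutadapt 1.12, aligned them to mm10 (GRCm38) with TopHat2 2.1.0 and computed FPKM with Cufflinks and Cuffdiff 2.2.1, per the labels and methods. The methods mention quantile normalization, but the deposited FPKM differ in distribution between libraries and were used as they stand. Groups and replicate numbers came from sample titles. Replicates are separate embryos.

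Genotypes were compared with limma 3.58.1 in R 4.3.3, on log2(FPKM + 1) and with the mean-variance trend, for the 13777 genes whose mean reached 0.5 FPKM, with Benjamini-Hochberg adjustment and a threshold of 0.05. The same kind of fit was also run on simulated data built from the gene means and spread of these libraries, and its outcome is not given here. Cuffdiff needs reads and was not rerun. For single genes, exact permutation tests (two-sided) enumerated all 56 assignments. FPKM carry no counts, so no interval for counting error is given. Locus starts, which count from 0 in the table, were raised by 1. The positions given for genes are these deposited loci, which can differ from GENCODE M21. Overlaps of exons came from GENCODE M21.

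The members and gene lists were chosen with earlier results of these data known. Named are all members, *Lats1* and *Lats2*, list genes without overlap between genotypes, the 2 smallest p of each list, and the 3 genes nearest to each of 2 members. One gene that this rule names is not reported here. Other settings tried were a pseudocount of 0.1 FPKM, either no filter or a higher one (mean of 2 FPKM), rescaling by quantiles or by median ratios, array weights, a fit without the trend, a block for the replicate number, and removal of each library. Leaving out WT replicate 5 and *Lats1/2*PanKO replicate 3 together, the library of each group with the lowest array weight, was added after seeing the data. Figures were drawn with matplotlib 3.10.9.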

Additional observations from a re-analysis of the deposited data

Results flagged for a closer look

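In 3 of 49 groups of WT values examined (32 genes, 11 sums or ratios of members and 6 sums of markers), 1 bud stood far from the other 4, and chance gives about 1 in 20 groups. *Sesn2* was at 4.03 FPKM in WT replicate 5 against 5.14 to 5.39 FPKM in the other WT buds, a gap of 0.815 of the whole WT range. *Lats2* was at 11.6 FPKM in WT replicate 5 against 13.96 to 14.67 FPKM, a gap of 0.765 of the range. WT replicate 5 was also the library with the fewest genes above 0, 16117. The share of *Bcl2l11* in the summed FPKM of the BH3-only members was 49.8% in WT replicate 2 against 59.3% to 61.1% in the other WT buds, and *Pmaip1* was highest in that bud, at 2.09 FPKM.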

How the results depend on the processing

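No Bcl2 family member had an adjusted p under 0.05 under any of 17 alternatives, so the count of 0 did not move. The number of genes called over the whole table was 2, and it was 18 with a pseudocount of 0.1 FPKM, 174 with array weights, 1 without the mean-variance trend, 1 with the replicate number as a block, 0 to 69 as each library was left out, and 21 without WT replicate 5 and *Lats1/2*PanKO replicate 3 together. The 69 came without *Lats1/2*PanKO replicate 2 and 19 without replicate 3, against 0 without WT replicate 1, 2, 3 or 5. For the wider apoptosis genes the count of 0 became 3 with array weights (*Tnfrsf21*, *Cdkn1a* and *Sesn1*) and ranged from 0 to 2 as each library was left out, with 2 (*Tnfrsf21* and *Cdkn1a*) without *Lats1/2*PanKO replicate 2. The cause was not tested.

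Between same-numbered buds, the correlations of deviations from the group means were weak, at 0.09, -0.10 and 0.07. *Lats1/2*PanKO replicates 1 and 3 correlated best with the WT bud of their own number, and replicate 2 with WT replicate 4 (0.14). Whether buds shared a litter or handling cannot be read from such values and was not tested. The block left the members' calls at 0.

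*Bcl2l1* had a log2 fold change of 0.30 to 0.55 and an unadjusted p under 0.05 in 17 of 17 alternatives, with an adjusted p of 0.117 to 0.633, and *Bax* 0.21 to 0.35 with an unadjusted p under 0.05 in 15 of 17, the adjusted p running from 0.155 to 0.944. Signs turned for 4 members as each library was left out, *Bcl2l2* (-0.0160 to 0.0920), *Bid* (-0.01 to 0.26), *Bbc3* (-0.24 to 0.11) and *Pmaip1* (-0.35 to 0.0445), and *Bid* was at -0.0426 without WT replicate 5 and *Lats1/2*PanKO replicate 3 together. The other 6 members, *Bcl2*, *Bcl2l1*, *Mcl1*, *Bax*, *Bak1* and *Bcl2l11*, kept their sign throughout. *Bbc3* and *Pmaip1* were not tested at a minimum mean of 2 FPKM. With 3 mutant buds, the 95% intervals of the low genes *Bbc3* (-0.52 to 0.42) and *Pmaip1* (-0.85 to 0.52) were the widest of the members; how far depth sets this was not tested.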
